A study of Mus musculus with 15 samples.

Results

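Hearts of 4-week-old mice with a cardiac knockout of MAT1 were compared with hearts of 2-week-old control mice, in order to see which genes of the older knockout heart lay at the juvenile level and which lay above or below it. The members were the 5 arrays titled as MAT1 CKO at 4 wk (CKO 4 wk) and the 3 titled as MAT1 control at 2 wk (control 2 wk), 8 of the 15 arrays of the series. No array of a 4-week control heart entered the difference. MAT1, encoded by Mnat1, assembles the kinase of the general transcription factor TFIIH, which acts on RNA polymerase II. CKO mice had the genotype αMHC-Cre+/0; MAT1F/F, with both Mnat1 alleles floxed, and control mice were littermates of the genotype αMHC-Cre+/0; MAT1F/+, with 1 wild-type allele. Both groups thus carried the same Cre transgene under the α-myosin heavy chain promoter, which is active in heart muscle cells, and the control mice were heterozygous for the floxed allele. Cells of the heart other than muscle keep the gene. The groups differed in age and in genotype at once, so the part of each cannot be told apart in any difference given here. Whether arrays within a group stem from different animals is left unsaid in the labels, so p-values measure the spread between arrays, which may be technical.

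The mouse heart matures in the weeks after birth. It replaces fetal and neonatal isoforms of contractile proteins with adult ones, leaves the cell cycle, and moves from glucose and lactate to fatty acids as its main fuel. A diseased adult heart is known for a partial return of the fetal program, in which natriuretic peptides and skeletal α-actin are expressed again, together with a loss of genes of fatty acid oxidation and a deposit of fibrous matrix.

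Values are intensities of a one-colour array as deposited, and differences are log2(CKO 4 wk) minus log2(control 2 wk) after adding 16 to each intensity, which understates the change of dim genes. They are given with the standard error of a limma fit. A gene is called where the adjusted p of that fit over 4950 tested genes lies under 0.05. A gene is said to lie at the juvenile level where the 95% interval of its difference lies wholly inside 1.5-fold in both directions. The arrays fell into 2 sets by their correlation, a split the labels do not name, and each set held both groups. Set 1 held CKO 4 wk replicates 1 and 2 and control 2 wk replicate 3, and set 2 held CKO 4 wk replicates 3, 4 and 5 and control 2 wk replicates 1 and 2. By Xist against Uty, 4 of the 5 CKO 4 wk and 1 of the 3 control 2 wk arrays were from females. Mnat1 itself was read by 2 probe sets, the brighter at 300.3, 314, 148, 141 and 149 in CKO 4 wk and at 87.9, 119.8 and 255 in control 2 wk hearts. Its levels followed the array sets, its difference was 0.45 ± 0.47 (adjusted p = 0.883 over all probe sets), and that of the dimmer probe set was 0.13 ± 0.27 (adjusted p = 0.995). It is not known here whether these probes read the deleted part of the gene, so Mnat1 does not check the labels.

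With the margin of 1.5-fold, most genes that could be placed lay at the juvenile level. This depends on the margin: with the narrower margin tried, fewer genes lay there than were called. Of 4950 genes, 269 (5.43%) were called higher in CKO 4 wk hearts and 171 (3.45%) lower, and 1399 (28.3%) lay at the juvenile level, 23 of them also called. The other 3134 were not placed by this fit. All 5 CKO 4 wk arrays lay above all 3 control 2 wk arrays in 504 genes (10.2%) and below them in 320 (6.46%). A fit that blocked on array set called 966 genes (19.5%) higher and 579 (11.7%) lower, and 3094 (62.5%) lay at the juvenile level; the 440 calls without the block were all among these calls. The balance of higher and lower calls depended on the scaling: 61.1% of calls were higher with the deposited scaling, 50.7% with each array scaled to the same median and 44.9% after quantile normalization. The calls fell to 135 higher and 80 lower without control 2 wk replicate 2, to 162 and 156 without replicate 3, and to 186 and 110 without replicate 1.

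**Figure D1:**
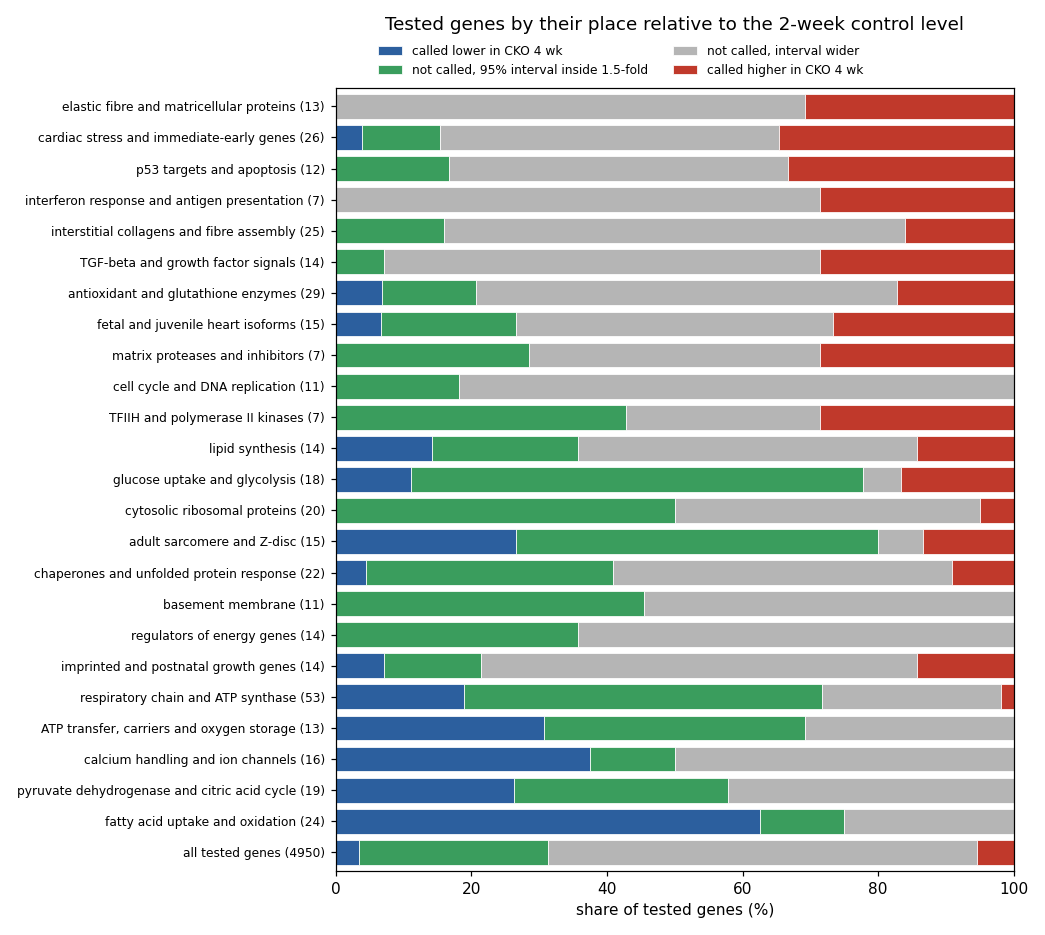
Share of tested genes (%, horizontal axis) in each gene list that was called lower, called higher, not called with a 95% interval inside 1.5-fold, or neither, in CKO 4 wk against control 2 wk hearts. The bar at the bottom gives all 4950 tested genes, and the number of tested genes follows each name. The list of fatty acid uptake and oxidation has 15 of 24 genes called lower, and the glycolysis and sarcomere lists lie mostly at the juvenile level.

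The 10 largest rises among genes whose arrays did not overlap were Col8a1, Tgfb2, Nppa, Myl1, Cdkn1a, Ephx1, Uck2, Pdlim7, Tgfb3 and Nqo1, from 10.2-fold for Col8a1 to 4.31-fold for Nqo1. The 10 largest falls were Kcne1, Mlf1, Sema5b, Gsta4, Tcea3, Aqp4, Tnnt1, Fkbp4, Car14 and Rgs2, from 7.06-fold lower for Kcne1 to 3.32-fold lower for Rgs2. Both lists of 10 were chosen for arrays that do not overlap, so that feature of theirs is no result.

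Fetal and juvenile heart isoforms did not keep 1 place. Of 15 tested genes, 4 were called higher, 1 lower and 3 lay at the juvenile level (median difference 0.24, against 0.05 over all tested genes). The 4 were the natriuretic peptides Nppa and Nppb, the skeletal actin Acta1 and the myosin light chain Myl1, and the gene that fell was the slow skeletal troponin T Tnnt1. The median was 0.11 after quantile normalization and 0.18 with arrays scaled to the same median. Counts in this and the later lists stand beside the shares over all tested genes. Those were 5.43% called higher, 3.45% called lower and 28.3% at the juvenile level.

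Nppa, which encodes atrial natriuretic peptide, read 5419, 5189.6, 6441, 7116 and 7138 in CKO 4 wk hearts and 988, 935 and 435 in control 2 wk hearts. Every CKO 4 wk array stood far above every control 2 wk array, a rise of 3.04 ± 0.33 (8.24-fold, adjusted p = 6.78e-05). Nppb, which encodes the B-type peptide, read 4237, 4449, 6614, 5992 and 5229 in CKO 4 wk hearts and 3232, 3221 and 2057 in control 2 wk hearts. Its groups also stayed apart, with a smaller rise of 0.91 ± 0.19 (1.88-fold, adjusted p = 0.00726, and adjusted p = 0.0721 with arrays scaled to the same median).

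Acta1, the skeletal α-actin that the fetal heart uses beside the cardiac form, read 8092, 8593, 7631, 8378 and 9176 in CKO 4 wk hearts and 2455, 2904 and 2805 in control 2 wk hearts. The spread within each group was small against the difference of 1.62 ± 0.11 (3.07-fold, adjusted p = 1.17e-06). Actc1, the cardiac α-actin, read 9103, 9916, 10240.4, 10744 and 11104 in CKO 4 wk hearts and 9384, 10300.2 and 8806 in control 2 wk hearts. These groups overlapped, and the interval of its difference (0.11, -0.03 to 0.24) placed it at the juvenile level. Myl1, an essential myosin light chain of fast skeletal muscle, read 5823, 5647, 6315, 5589 and 5511 in CKO 4 wk hearts and 666, 853 and 810.0 in control 2 wk hearts, a rise of 2.88 ± 0.56 (7.34-fold, adjusted p = 0.00507). Of 8 tested skeletal muscle markers Myl1 was the 1 called, and the myosin Myh4 (0.00, interval -0.30 to 0.29) and the troponin C Tnnc2 (0.10, -0.36 to 0.56) lay at the juvenile level. Myh4 itself read 456 to 537 in CKO 4 wk and 439 to 561 in control 2 wk hearts.

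The promoters of 3 of the genes that rose and of the actin that did not are shown, because they hold short motifs known from muscle promoters. Each is 300 bases from RefSeq (GRCm38.p6), from 250 before to 50 after the start of the gene, on the strand of the gene. Capitals mark CATTCC, the core bound by TEAD factors, on either strand (GGAATG when read on the other strand), and the CArG box bound by serum response factor. No CATTCC overlapped a CArG box in these 4.
Acta1, chr8:123894726-123895025, minus strand.
Acta1: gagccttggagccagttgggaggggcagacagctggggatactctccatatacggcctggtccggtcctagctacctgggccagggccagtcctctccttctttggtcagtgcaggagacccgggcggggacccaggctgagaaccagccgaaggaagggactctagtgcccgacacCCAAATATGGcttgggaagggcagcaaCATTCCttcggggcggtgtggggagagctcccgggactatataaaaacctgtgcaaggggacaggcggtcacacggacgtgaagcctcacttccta
Actc1, chr2:114052826-114053125, minus strand.
Actc1: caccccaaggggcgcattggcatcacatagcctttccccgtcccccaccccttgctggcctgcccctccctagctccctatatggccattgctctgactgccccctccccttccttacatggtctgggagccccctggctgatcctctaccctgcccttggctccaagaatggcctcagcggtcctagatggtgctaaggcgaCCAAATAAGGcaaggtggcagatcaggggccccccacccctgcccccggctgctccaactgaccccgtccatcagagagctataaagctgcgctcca
Nppb, chr4:147985650-147985949, plus strand.
Nppb: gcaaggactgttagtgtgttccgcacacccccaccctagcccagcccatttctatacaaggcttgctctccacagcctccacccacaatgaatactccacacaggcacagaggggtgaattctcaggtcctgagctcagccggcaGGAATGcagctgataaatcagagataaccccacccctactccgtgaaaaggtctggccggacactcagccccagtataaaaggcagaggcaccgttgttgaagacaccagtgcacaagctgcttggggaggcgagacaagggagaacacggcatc
Myl1, chr1:66945007-66945306, minus strand.
Myl1: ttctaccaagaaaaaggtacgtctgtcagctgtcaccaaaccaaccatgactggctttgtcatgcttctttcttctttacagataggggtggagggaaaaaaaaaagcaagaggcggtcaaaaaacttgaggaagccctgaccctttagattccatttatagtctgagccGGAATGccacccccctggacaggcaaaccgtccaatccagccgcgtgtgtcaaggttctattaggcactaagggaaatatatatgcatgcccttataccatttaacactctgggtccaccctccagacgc
The Acta1 promoter has a CArG box starting 73 bases and a CATTCC starting 46 bases before the gene's start. The Actc1 promoter has a CArG box at 47 bases and no CATTCC in this window. Nppb and Myl1 each have 1 CATTCC, read on the other strand, whose leftmost base lies 105 and 80 bases before the start, and no CArG box. Among all 32851 promoters, 14.7% held CATTCC and 1.63% a CArG box. In the lists a gene counts if any of its promoters holds the motif, so the units differ. Of the 13 tested fetal and juvenile isoform genes with a promoter in the table, 7 held the TEAD core. These were Acta1, Nppb and Myl1, which rose, Acta2 and, by its brighter probe set, Myh7, which lay at the juvenile level, and Ckb and Myl7, which were neither called nor placed there. A CArG box was in 2 of the 13, Acta1 and Myl7. Nppa, which also rose and is not shown, was not among the genes with either motif. Of 14 adult sarcomere genes, 5 held CATTCC and 4 a CArG box. These are matches of letters and say nothing of binding.

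Myh7, the slow β-myosin heavy chain of the fetal ventricle, read 7570.5, 7163, 7977, 7069.9 and 6221 in CKO 4 wk hearts and 7589, 7504 and 7647 in control 2 wk hearts. By this probe set, its brighter one, it lay at the juvenile level (-0.08 ± 0.07, interval -0.24 to 0.08). Its second probe set read 2644, 2228, 3111, 2470 and 1555 in CKO 4 wk hearts and 817, 937 and 821 in control 2 wk hearts. These did not overlap, and the rise was 1.43 ± 0.22 (adjusted p = 0.00157 over all probe sets), so the place of Myh7 depends on the probe set. Myh6 and Myh7 are close in sequence, and whether a probe set reads both was not tested. Acta2, the smooth muscle actin present in the fetal heart, also lay there (0.13, -0.28 to 0.55), at 2760.1 to 4738 in CKO 4 wk and 2786 to 3558 in control 2 wk hearts. Tnnt1 read 95.3, 118, 123, 119.9 and 139 in CKO 4 wk hearts and 767, 635 and 371 in control 2 wk hearts, a fall to 4.33-fold below the juvenile level (-2.11 ± 0.34, adjusted p = 0.00132). Tnni1, the slow troponin I that Tnni3 replaces after birth, read 167, 172, 87.6, 71.6 and 74.5 in CKO 4 wk hearts. In control 2 wk hearts it read 1334, 243 and 179.6, with 1 array far above the other 2. Its arrays did not overlap, yet the difference of -1.73 ± 0.82 was not called (adjusted p = 0.262).

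Adult sarcomere genes lay mostly at the juvenile level. Of 15 tested genes of the adult sarcomere and Z-disc, 10 lay there, 2 were called higher and 4 lower, 2 of which lay within 1.5-fold (median -0.01). Myl2, the ventricular regulatory light chain, read 9024, 9278, 9208, 9040.2 and 9575 in CKO 4 wk hearts and 9814, 9738 and 8742 in control 2 wk hearts, a difference of -0.03 (interval -0.12 to 0.06). Myl2, Actc1 and Myh6 were among the brightest probe sets, with at most 8 brighter on any of these arrays, and whether the readout is compressed there was not tested. Myh6, the α-myosin heavy chain whose promoter drives the Cre, read 8473, 8366, 9369, 8734 and 9054 in CKO 4 wk hearts and 11739, 12275 and 10230.4 in control 2 wk hearts. Its groups did not overlap and its fall was called, but it stayed within 1.5-fold (-0.37 ± 0.07, adjusted p = 0.00405, and adjusted p = 0.128 with arrays scaled to the same median). Tnni3, the cardiac troponin I, read 5965, 6188, 6873, 5595 and 5682 in CKO 4 wk hearts and 8721, 9750.2 and 8988 in control 2 wk hearts, below the juvenile level by -0.60 ± 0.06 (adjusted p = 6.00e-05). Myom2, a myosin-binding protein of the M-band, read 773, 699, 910.4, 763 and 414 in CKO 4 wk hearts and 2208, 2051 and 1640.1 in control 2 wk hearts. Its fall was the largest of the list (-1.48 ± 0.23, 2.79-fold lower, adjusted p = 0.00113), with CKO 4 wk replicate 5 lowest. Des, the intermediate filament desmin, read 3623, 3505, 3664, 3602 and 4343 in CKO 4 wk hearts and 2441, 2509 and 2672 in control 2 wk hearts and rose by 0.55 ± 0.09 (adjusted p = 0.00113, and adjusted p = 0.0549 with arrays scaled to the same median). That scaling left 2 genes of the list lower and none higher, and 1 was higher without control 2 wk replicate 3. The cardiac troponin T Tnnt2 was called lower by -0.21 ± 0.06 (adjusted p = 0.0484) and lost that call without CKO 4 wk replicate 1, 2, 3, 4 or 5 or control 2 wk replicate 1, 2 or 3 (adjusted p = 0.0533 to 0.186).

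Of 16 tested genes of calcium handling and conduction, 6 were called lower and none higher, and 3 lay at the juvenile level, 1 of which was also called lower (median -0.37). Ryr2, the calcium release channel of the sarcoplasmic reticulum, read 967, 936, 1456, 1305 and 1537 in CKO 4 wk hearts and 2969.7, 3229.8 and 2637 in control 2 wk hearts. All CKO 4 wk arrays were lower, at 2.4-fold below control 2 wk (-1.26 ± 0.17, adjusted p = 0.000361). Gja1, which encodes the gap junction protein connexin 43, read 2554, 2151, 2704, 2018 and 2461 in CKO 4 wk hearts and 5524, 6002 and 5689.7 in control 2 wk hearts. The difference was -1.27 ± 0.09 (2.42-fold lower, adjusted p = 1.17e-06), and was -1.27 within set 1 and -1.27 within set 2. Hrc, which buffers calcium within the sarcoplasmic reticulum, fell by a like amount (-1.21 ± 0.12, adjusted p = 3.51e-05).

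Kcne1, a potassium channel subunit, showed the largest fall of the whole comparison among genes whose arrays did not overlap. It read 126, 106, 71.9, 75.1 and 69.4 in CKO 4 wk hearts and 1639.9, 695 and 315 in control 2 wk hearts. The control arrays varied widely, from 315 to 1639.9, so the fall of -2.82 ± 0.58 (adjusted p = 0.00684) was -1.33 within set 1 and -3.62 within set 2. Atp2a2, the calcium pump SERCA2, read 5795, 6034, 5445, 5132 and 5824 in CKO 4 wk hearts and 7296, 7716 and 6492 in control 2 wk hearts. It was called lower yet lay within 1.5-fold (-0.34 ± 0.07, adjusted p = 0.00519). The sodium-calcium exchanger Slc8a1 lay at the juvenile level (0.01, -0.20 to 0.21), at 1999 to 2306 in CKO 4 wk and 2042 to 2187 in control 2 wk hearts.

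**Figure D2:**
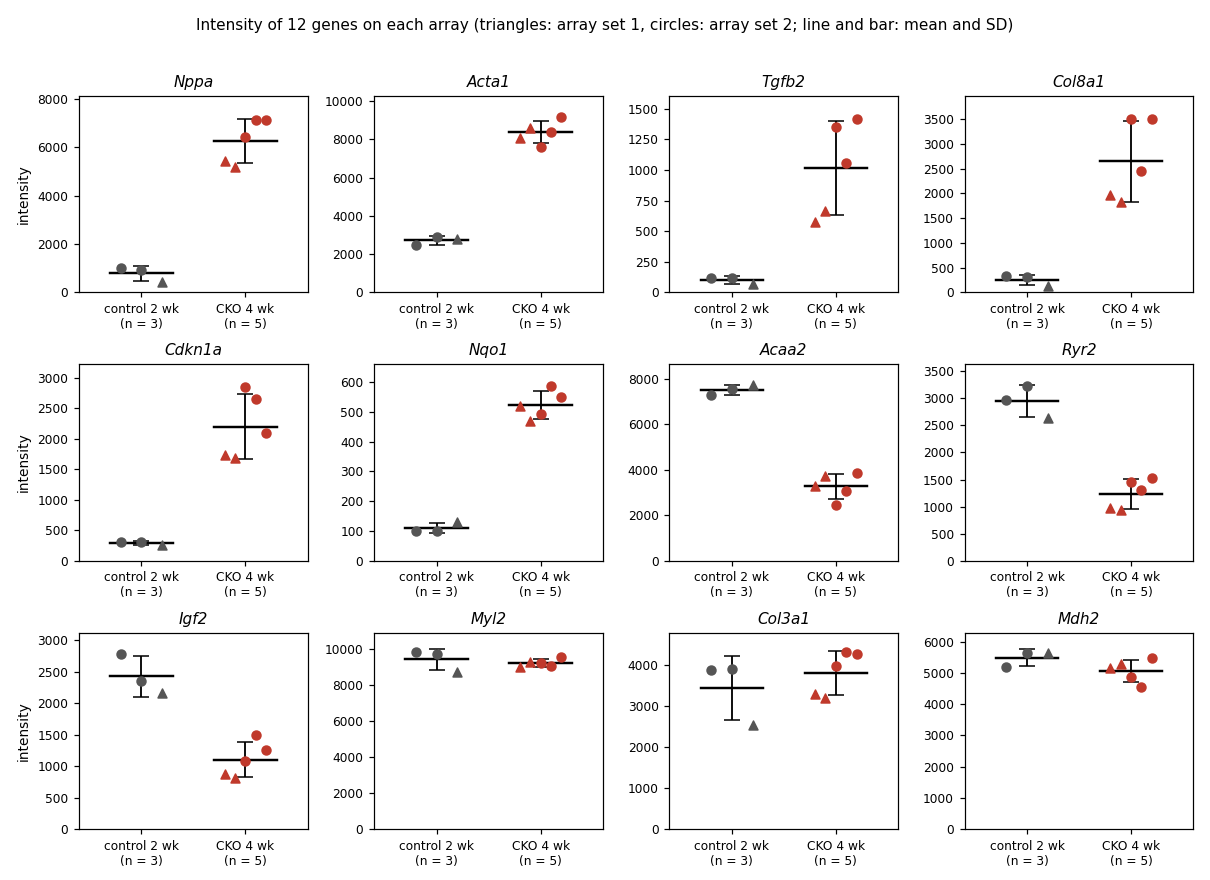
Deposited intensity (vertical axis, arbitrary units from 0) of 12 genes on each of the 3 control 2 wk and 5 CKO 4 wk arrays. Triangles are arrays of set 1 and circles arrays of set 2; the horizontal line is the group mean and the bar the SD. Nppa ranges over 5189.6 to 7138 in CKO 4 wk and 435 to 988 in control 2 wk hearts; the groups do not overlap in Nppa, Acta1, Tgfb2, Col8a1, Cdkn1a, Nqo1, Acaa2, Ryr2 and Igf2, and overlap in Myl2, Col3a1 and Mdh2.

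Fatty acid oxidation was the list with the most called falls. Of its 24 tested genes, which include those of uptake, 15 were called lower and none higher, 4 lay at the juvenile level, and all 24 differences were below 0 (median -0.69). In the blocked fit 22 of the 24 were called lower. The list's median on each array, set against the control 2 wk mean, was -0.84, -0.82, -0.83, -0.59 and -0.61 in CKO 4 wk hearts, where the control 2 wk arrays gave 0.03, 0.02 and -0.05. Acaa2, a thiolase that ends each round of mitochondrial β-oxidation, read 3300.0, 3715, 2473, 3077 and 3851 in CKO 4 wk hearts and 7279.9, 7556 and 7719 in control 2 wk hearts. No CKO 4 wk array came near a control array, and the fall was -1.21 ± 0.11 (2.31-fold lower, adjusted p = 2.33e-05). Cpt2, which reforms acyl-CoA inside the mitochondrion, read 925, 914, 757, 979 and 1139 in CKO 4 wk hearts and 2249.6, 2339 and 2073 in control 2 wk hearts, a fall of -1.23 ± 0.13 (adjusted p = 6.00e-05) that was not called with the mean of its probe sets (-0.56, adjusted p = 0.075). The carnitine carrier Slc25a20 read 781, 753, 760.1, 713 and 797 in CKO 4 wk hearts and 1555, 1459 and 1434 in control 2 wk hearts and fell to 1.93-fold below control (-0.95 ± 0.11, adjusted p = 0.00013).

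2 genes of lipid uptake lay within 1.5-fold of control. Lpl, the lipoprotein lipase that frees fatty acids at the vessel wall, lay at the juvenile level (-0.04, -0.23 to 0.16) at 3691 to 4472 in CKO 4 wk and 3874 to 4509.9 in control 2 wk hearts. Fabp3, the heart fatty acid binding protein, was not called (-0.27 ± 0.09, adjusted p = 0.0718) and lay within 1.5-fold, although its arrays did not overlap (5284 to 6393 and 6805 to 7515). It was called lower with the block (-0.25) and after quantile normalization. In genes chosen after their values were seen, the kinase Pdk4, which restrains pyruvate dehydrogenase, differed by -1.46 (adjusted p = 0.00114) and the isomerase Eci1 by -1.61 (adjusted p = 0.00416).

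Of 19 tested pyruvate dehydrogenase and citric acid cycle genes 5 were called lower and none higher, 8 lay at the juvenile level and 8 were not placed (median -0.40), 2 of those at the level being also called; the block called 17 lower. The 5 fell to 1 without control 2 wk replicate 2 and to 2 without replicate 1. Cs, the citrate synthase, read 2795, 2680.2, 2543, 2454 and 2979.8 in CKO 4 wk hearts and 3744, 4036 and 4435 in control 2 wk hearts, a fall of -0.59 ± 0.10 (adjusted p = 0.00231). Mdh2, the mitochondrial malate dehydrogenase, lay at the juvenile level (-0.12, -0.27 to 0.04) at 5149, 5281, 4852, 4549.8 and 5477 in CKO 4 wk hearts and 5175, 5642 and 5639.7 in control 2 wk hearts. Sdha, the flavoprotein subunit of complex II, fell by -0.99 ± 0.21 (adjusted p = 0.00726), a call lost without control 2 wk replicate 2 (adjusted p = 0.0545).

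Of 53 tested genes of the respiratory chain and ATP synthase 34 lay at the juvenile level, 10 were called lower and 1 higher, and 6 of these calls lay within 1.5-fold (median -0.23). The block called 28 lower and 3 higher. The 10 fell to 4 without control 2 wk replicate 2 and to 6 without replicate 1 or replicate 3, and the 10 were 17 after quantile normalization and 4 with arrays scaled to the same median. Ndufs1, an iron-sulfur subunit of complex I, read 1346, 1319, 1483, 1849.7 and 2171 in CKO 4 wk hearts and 2836, 3069 and 2544 in control 2 wk hearts, a fall of -0.80 ± 0.16 (adjusted p = 0.00573). Ndufb2, an accessory subunit, was lower by -0.41 ± 0.07 (adjusted p = 0.00153) and within 1.5-fold. Uqcrq of complex III lay at the juvenile level (-0.10, -0.23 to 0.03). The gene called higher, Ndufb5 (0.24 ± 0.06, adjusted p = 0.0314), lost the call without CKO 4 wk replicate 1, 2, 3 or 4 or control 2 wk replicate 1 or 2 (adjusted p = 0.056 to 0.153).

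Of 13 tested genes for ATP transfer, carriers and oxygen storage 4 were called lower, none higher, and 7 lay at the juvenile level (median -0.35). Mb, the oxygen store myoglobin, and Slc25a4, the adenine nucleotide carrier, were lower by -0.35 ± 0.05 and -0.36 ± 0.05 (adjusted p = 0.000871 and 0.000678), both within 1.5-fold, and Mb was not called with the mean of its probe sets (-0.01, adjusted p = 0.999). Ckmt2, the mitochondrial creatine kinase, lay at the juvenile level at 5536, 5649, 4768, 4827 and 5721 in CKO 4 wk hearts and 4904, 5704 and 6263 in control 2 wk hearts (-0.08, -0.31 to 0.14). A dimmer probe set of Ckmt2 differed by -0.45 ± 0.21 (adjusted p = 0.355 over all probe sets), and by -0.42 (adjusted p = 0.0423) with the block.

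Genes of glucose use lay mostly at the juvenile level. Of 18 tested genes of glucose uptake and glycolysis 13 lay there, 3 were called higher and 2 lower (median 0.05, and -0.01 after quantile normalization or with arrays scaled to the same median). Pfkp, the platelet isoform of phosphofructokinase, read 767, 793, 868, 1360.1 and 1487 in CKO 4 wk hearts and 458, 461 and 299 in control 2 wk hearts and rose by 1.31 ± 0.25 (2.48-fold, adjusted p = 0.00471). Ugp2, which makes UDP-glucose, rose by 1.34 ± 0.24 (adjusted p = 0.00305), and the glycogen phosphorylase Pygb fell by -0.60 ± 0.11 (adjusted p = 0.00365). Aldoa (0.14, 0.00 to 0.29) and Eno3 (0.25, 0.09 to 0.42), 2 glycolytic enzymes, lay at the juvenile level. With the block both were called higher, and the list had 5 higher and 2 lower. Without control 2 wk replicate 1 or replicate 2 the list had 2 higher and 1 lower.

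None of 14 tested regulators of energy genes was called by limma (2 at an unadjusted p under 0.05), and 5 lay at the juvenile level (median -0.10). The block called 3 of them lower. Esrra, the estrogen-related receptor α, read 816, 882, 666, 859.9 and 857 in CKO 4 wk hearts and 926, 908 and 789 in control 2 wk hearts. By this probe set, its brighter one, it lay at the juvenile level (-0.10, -0.37 to 0.17). Its other probe set differed by -0.54 ± 0.17 (adjusted p = 0.0882 over all probe sets) and by -0.53 (adjusted p = 0.0106) with the block. The place of Esrra thus depends on the probe set. Ppara, the fatty acid receptor, read 524, 448, 404, 474 and 414 in CKO 4 wk hearts and 537, 667 and 602 in control 2 wk hearts. These arrays did not overlap, and the difference was -0.40 ± 0.15 (adjusted p = 0.128) and -0.41 ± 0.13 (adjusted p = 0.0215) with the block. Ppargc1a, the coactivator PGC-1α, was among the genes left out as dim, at 47.3, 45.9, 74.2, 75.6 and 67.3 in CKO 4 wk hearts and 116, 173 and 61.3 in control 2 wk hearts. Its difference was -0.70 ± 0.27 (adjusted p = 0.173) and -0.66 ± 0.16 (adjusted p = 0.00825) with the block.

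Lipid synthesis genes split. Of 14 tested genes 2 were called higher and 2 lower, and 3 lay at the juvenile level (median 0.05, -0.05 after quantile normalization and -0.00 with arrays scaled to the same median). Scd1, a fatty acid desaturase, read 775, 486, 1046, 746 and 728 in CKO 4 wk hearts and 209, 209 and 194 in control 2 wk hearts, a rise of 1.77 ± 0.21 (3.42-fold, adjusted p = 0.000113). Gpam, the first acyltransferase of glycerolipid synthesis, read 909, 912, 792, 964 and 1106 in CKO 4 wk hearts and 1949.7, 1978 and 2117 in control 2 wk hearts, a fall of -1.10 ± 0.12 (adjusted p = 6.00e-05). Mid1ip1, which promotes fatty acid synthesis, fell by -1.24 ± 0.23 (adjusted p = 0.00312). Its other probe set, nearly as bright, differed by -0.33 ± 0.20 (adjusted p = 0.565 over all probe sets). Without control 2 wk replicate 2, 1 gene of the list was called higher. The shares over all tested genes were 5.43% higher, 3.45% lower and 28.3% at the juvenile level.

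**Figure D3:**
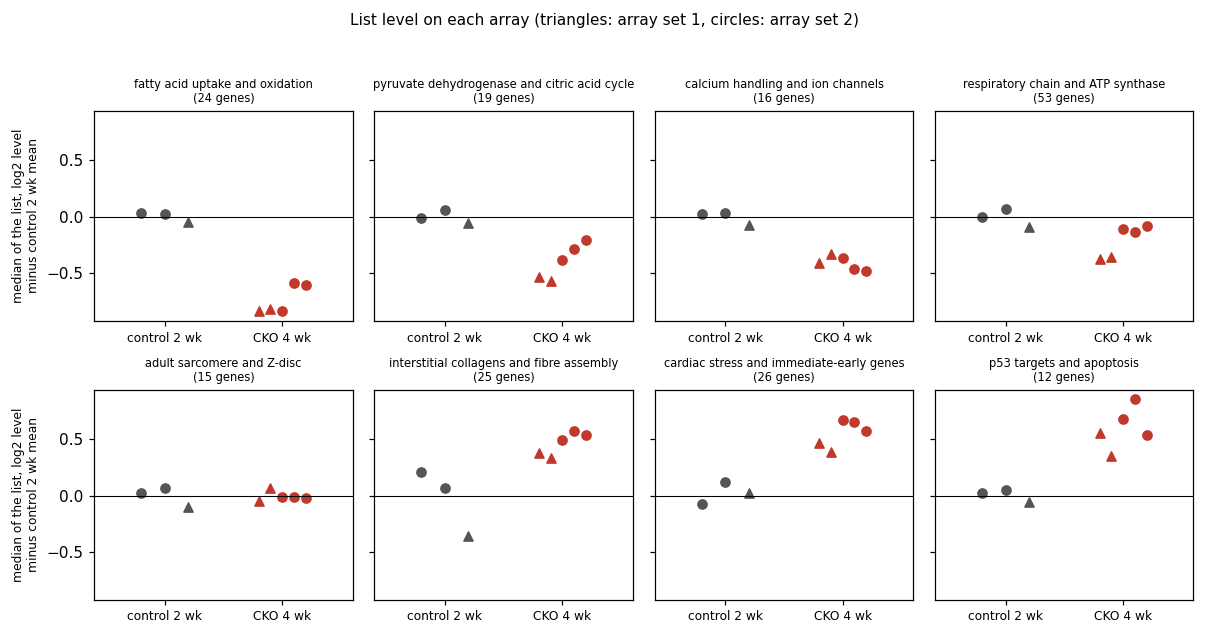
Median over the tested genes of 8 lists of the log2 level on each array minus the mean of the 3 control 2 wk arrays (vertical axis, log2), with triangles for arrays of set 1 and circles for set 2. The fatty acid list lies between -0.84 and -0.59 on the CKO 4 wk arrays and between -0.05 and 0.03 on the control arrays, and control 2 wk replicate 3 lies lowest for the interstitial collagens.

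Interstitial matrix genes ranged from the juvenile level to the largest rise of the comparison. Of 25 tested genes for interstitial collagens and fibre assembly 4 were called higher and none lower, 4 lay at the juvenile level and 24 differences were above 0 (median 0.44). The block called 15 higher. The 4 became 7 without CKO 4 wk replicate 2, were 6 without replicate 1, and were 3 or 4 when any other array was left out. Col8a1, a short-chain collagen, read 1958, 1816, 3504, 2445 and 3504 in CKO 4 wk hearts and 322, 301 and 132 in control 2 wk hearts. Its rise was the largest of the comparison among genes whose arrays did not overlap (3.35 ± 0.43, 10.2-fold, adjusted p = 0.000271). Bgn, the proteoglycan biglycan, read 4909.9, 4785, 4799, 4660.4 and 4823 in CKO 4 wk hearts and 1663, 1377 and 1305 in control 2 wk hearts, a rise of 1.72 ± 0.17 (3.3-fold, adjusted p = 3.21e-05). Dcn, the proteoglycan decorin, rose by 0.52 ± 0.06 (adjusted p = 0.000228, and adjusted p = 0.0644 with arrays scaled to the same median).

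Col3a1, a fibrillar collagen, read 3294, 3194, 3977, 4317 and 4280.1 in CKO 4 wk hearts and 3896, 3916 and 2539 in control 2 wk hearts, and its groups overlapped (0.16 ± 0.23, interval -0.33 to 0.65, adjusted p = 0.858). The fit without the block did not place it, and with the block it lay at the juvenile level (0.19, -0.06 to 0.45). Col1a1 read 3765, 3964, 4552, 4061 and 4403 in CKO 4 wk hearts and 3661, 3386 and 2223 in control 2 wk hearts. The difference of 0.45 ± 0.22 was not called (adjusted p = 0.273), and with the block it was (0.48 ± 0.15, adjusted p = 0.0211). Postn, the matricellular protein periostin of activated fibroblasts, read 2697, 2434, 4630.0, 5189.8 and 4929.6 in CKO 4 wk hearts and 2749, 2164 and 820.4 in control 2 wk hearts. Control 2 wk replicate 3 was lowest, and the difference was 1.15 ± 0.54 (adjusted p = 0.257) without and 1.23 ± 0.25 (adjusted p = 0.00135) with the block. Eln, elastin, was called in neither fit (0.51 ± 0.37, adjusted p = 0.562, and 0.254 with the block). Serpinh1, the collagen chaperone HSP47, lay at the juvenile level (0.00, -0.28 to 0.29).

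Of 13 tested elastic fibre and matricellular genes 4 were called higher and none lower, and none lay at the juvenile level (median 0.77). The 4 were Ccn2, Mgp, Fbln2 and Mfap5, the last named after its values were seen, and each kept its call when any 1 array was left out. Ccn2, the connective tissue growth factor, read 3039, 2706, 5406, 4735 and 4588 in CKO 4 wk hearts and 1266, 1039 and 607 in control 2 wk hearts, a rise of 2.07 ± 0.29 (4.2-fold, adjusted p = 0.000584). Mgp, the matrix Gla protein, and Fbln2, a fibulin of elastic fibres, rose by 1.29 ± 0.17 and 1.13 ± 0.20 (adjusted p = 0.000361 and 0.00234). Of 7 tested matrix proteases and inhibitors 2 were called higher (median 0.17), the inhibitors Timp1 (1.44 ± 0.28, adjusted p = 0.00529) and Timp2 (0.70 ± 0.15, adjusted p = 0.00716), both uncalled with the mean of their probe sets (0.55, adjusted p = 0.0767, and 0.57, adjusted p = 0.0517), and the protease Mmp14 lay at the juvenile level (0.11, -0.25 to 0.48). None of 11 tested basement membrane genes was called by limma (2 at an unadjusted p under 0.05), and 5 lay at the juvenile level, among them Col4a1 (0.25, 0.07 to 0.43) and Col4a2 (0.30, 0.11 to 0.49). Their median was -0.07, and the block called 2 higher and 2 lower. Shares of 5.43% higher and 3.45% lower over all tested genes leave few calls to be expected among 11 genes.

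Of 14 tested TGF-β and growth factor genes 4 were called higher, none lower, and 1, Pdgfa (0.05, -0.29 to 0.40), lay at the juvenile level (median 0.40). Tgfb2 read 575, 667, 1349, 1060.4 and 1418 in CKO 4 wk hearts and 117, 119.9 and 65.2 in control 2 wk hearts, a rise of 3.09 ± 0.32 (8.52-fold, adjusted p = 5.75e-05). In each group the arrays of set 2 read above those of set 1, and the rise was 2.97 within set 1 and 3.26 within set 2. Tgfb3 read 782, 599, 1697, 1231 and 1413 in CKO 4 wk hearts and 234, 196 and 219.9 in control 2 wk hearts and rose by 2.22 ± 0.29 (adjusted p = 0.000343). Tgfb1, named after its values were seen, was also called (0.76 ± 0.19, adjusted p = 0.0251). It lost the call without CKO 4 wk replicate 4 or 5 or control 2 wk replicate 1, 2 or 3 (adjusted p = 0.0503 to 0.106), after quantile normalization (adjusted p = 0.109) and with arrays scaled to the same median (adjusted p = 0.144). Hbegf, a ligand of the EGF receptor, rose by 1.74 ± 0.25 (3.34-fold, adjusted p = 0.000666).

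Cardiac stress genes rose more often than they fell. Of 26 tested stress and immediate-early genes 9 were called higher and 1 lower, and 3 lay at the juvenile level (median 0.58); this list also holds Ccn2. Rcan1, a target and inhibitor of calcineurin, read 2951, 3095, 3296, 3071 and 3421 in CKO 4 wk hearts and 1091, 1005 and 797 in control 2 wk hearts, a rise of 1.71 ± 0.20 (3.27-fold, adjusted p = 0.000113). Ankrd1, a stretch-responsive protein of the sarcomere and nucleus, read 5348, 5878, 5679, 5355 and 5284 in CKO 4 wk hearts and 3730.0, 3872 and 3156 in control 2 wk hearts and rose by 0.62 ± 0.09 (adjusted p = 0.000441). The gene that fell was Fhl2, a LIM protein of heart muscle, at 2912, 2914, 2816, 3001 and 2923 in CKO 4 wk hearts and 4865, 5215 and 5244 in control 2 wk hearts. Both groups were tight, and the difference was -0.81 ± 0.07 (1.75-fold lower, adjusted p = 1.72e-05).

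Of 12 tested p53 targets and apoptosis genes 4 were called higher and none lower, and 2 lay at the juvenile level (median 0.55). Cdkn1a, the cell cycle inhibitor p21, read 1729, 1681, 2850.1, 2651 and 2089 in CKO 4 wk hearts and 303, 313 and 249 in control 2 wk hearts. The lowest CKO 4 wk array was far above the highest control array, a rise of 2.84 ± 0.30 (7.15-fold, adjusted p = 6.00e-05). Phlda3, an inhibitor of Akt signalling, rose by 1.23 ± 0.15 (adjusted p = 0.000183) and the RNA-binding zinc finger gene Zmat3 by 1.05 ± 0.15 (adjusted p = 0.000666), while Ei24 lay at the juvenile level (-0.05, -0.50 to 0.39). None of 11 tested cell cycle and DNA replication genes was called by limma or had an unadjusted p under 0.05 (median 0.15). That list held 35 genes, of which 32 had a probe set, and most of these were left out as dim. The thymidine kinase Tk1 (0.24, -0.09 to 0.58) and the cyclin Ccne1 (0.07, -0.34 to 0.49), 2 genes, lay at the juvenile level. By its dimmer probe set Tk1 differed by -0.56 ± 0.24 (adjusted p = 0.28 over all probe sets), and by -0.60 (adjusted p = 0.0123) with the block. Of the 11 tested genes the block called 1 higher. With 5.43% called higher and 3.45% lower over all tested genes, few calls are to be expected among 11.

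Antioxidant and glutathione enzymes moved both ways. Of 29 tested genes 5 were called higher and 2 lower, and 4 lay at the juvenile level (median 0.33). Over all tested genes 5.43% were called higher, 3.45% lower and 28.3% lay at that level. Quantile normalization gave 4 higher and 5 lower, and without CKO 4 wk replicate 3 or control 2 wk replicate 2 the list had 3 higher. Nqo1, a quinone reductase, read 518, 469, 492, 586 and 551 in CKO 4 wk hearts and 100.5, 98.4 and 129 in control 2 wk hearts, a rise of 2.11 ± 0.20 (4.31-fold, adjusted p = 3.03e-05). Gpx3, the secreted glutathione peroxidase, read 5465, 5758, 5677, 7378 and 5655 in CKO 4 wk hearts and 1674, 1576 and 1275 in control 2 wk hearts and rose by 1.98 ± 0.13 (3.94-fold, adjusted p = 1.17e-06). Gsta4, a glutathione transferase that acts on lipid peroxidation products, read 45.1, 64.7, 83.5, 73.7 and 89.4 in CKO 4 wk hearts and 467, 564 and 235 in control 2 wk hearts. It lay below the juvenile level by -2.27 ± 0.39 (4.81-fold lower, adjusted p = 0.00218), and Sod1, the cytosolic superoxide dismutase, lay at it (0.06, -0.15 to 0.27). Ephx1, the microsomal epoxide hydrolase, rose by 2.52 ± 0.67 (adjusted p = 0.0286). Its level followed the array sets, at 351, 325, 1243, 1262 and 1096 in CKO 4 wk hearts and 215, 149 and 40.4 in control 2 wk hearts, and its call was lost without CKO 4 wk replicate 3, 4 or 5 or control 2 wk replicate 2 or 3 (adjusted p = 0.0639 to 0.149).

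Of 22 tested chaperones and unfolded protein response genes 2 were called higher and 1 lower, and 8 lay at the juvenile level (median -0.04). Hspd1, the mitochondrial chaperonin, read 1914, 1902, 1440.0, 1308 and 1624 in CKO 4 wk hearts and 2649, 2689 and 2520.4 in control 2 wk hearts, a fall of -0.69 ± 0.12 (adjusted p = 0.00277) that was not called with the mean of its probe sets (-0.36, adjusted p = 0.197). The heat shock gene Hspa1b, nearly identical to Hspa1a, rose by 1.31 ± 0.32 (adjusted p = 0.0182), a call lost without control 2 wk replicate 1 or 2 (adjusted p = 0.082 to 0.0966). Ddit3, the stress factor CHOP, rose by 0.60 ± 0.15 (adjusted p = 0.0183), a call lost without control 2 wk replicate 1, 2 or 3 (adjusted p = 0.0565 to 0.0801), and Atf4 lay at the juvenile level (0.02, -0.24 to 0.27).

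Igf2, an imprinted fetal growth factor, lay below the juvenile level. It read 876, 809, 1086, 1489.8 and 1253 in CKO 4 wk hearts and 2787, 2345 and 2156 in control 2 wk hearts, a fall of -1.16 ± 0.22 (2.23-fold lower, adjusted p = 0.00471). Of 14 tested imprinted and postnatal growth genes it was the 1 called lower, while 2 were called higher and 2 lay at the juvenile level (median -0.20). Igf1r, its signalling receptor, read 1116, 1174, 1399.8, 1285 and 1355 in CKO 4 wk hearts and 859, 911 and 609 in control 2 wk hearts and rose by 0.68 ± 0.14 (adjusted p = 0.00797, and adjusted p = 0.073 with arrays scaled to the same median). Igfbp3, a binding protein of the same ligands, rose by 0.87 ± 0.21 (adjusted p = 0.0169), a call lost without control 2 wk replicate 2 (adjusted p = 0.115). The imprinted genes Grb10 (0.06, -0.45 to 0.57) and Gnas (0.13, -0.09 to 0.34) lay at the juvenile level, and with the block Gnas was called higher within 1.5-fold (0.14 ± 0.05, adjusted p = 0.0411). A dimmer probe set of Grb10 differed by -0.52 ± 0.16 (adjusted p = 0.0973 over all probe sets), and by -0.52 (adjusted p = 0.0172) with the block.

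Other large differences lay outside these lists. Uck2, a uridine kinase, read 843, 911, 1886, 1507 and 2711 in CKO 4 wk hearts and 298, 277 and 214 in control 2 wk hearts, a rise of 2.38 ± 0.34 (adjusted p = 0.000554). Pdlim7, a PDZ and LIM protein, rose by 2.29 ± 0.57 (adjusted p = 0.0203), and lost the call without CKO 4 wk replicate 4 or control 2 wk replicate 2 or 3 (adjusted p = 0.0503 to 0.0916); its 3 dimmer probe sets differed by -0.03 to 0.33. Fkbp4, an immunophilin that binds Hsp90, read 746, 636, 567, 462 and 587 in CKO 4 wk hearts and 2164, 2445 and 1976 in control 2 wk hearts. Its standard error was the smallest of the 10 leading falls (-1.86 ± 0.14, 3.62-fold lower, adjusted p = 3.98e-06). Mlf1 fell by -2.61 ± 0.30 (adjusted p = 0.000104) and Tcea3, a transcription elongation factor, by -2.25 ± 0.35 (adjusted p = 0.00107). Aqp4, a water channel, fell by -2.24 ± 0.39 (adjusted p = 0.00232) and the carbonic anhydrase Car14 by -1.80 ± 0.30 (adjusted p = 0.0015). Sema5b, a semaphorin, fell by -2.47 ± 0.42 (adjusted p = 0.00195). Rgs2, a regulator of G protein signalling, fell by -1.73 ± 0.39 (adjusted p = 0.011), a call lost without control 2 wk replicate 1 or 2 (adjusted p = 0.0504 to 0.0689).

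The list of TFIIH and polymerase II kinases, to which MAT1 belongs, held 16 genes, of which 11 had a probe set and 7 were tested. Of the 7, 2 were called higher, none lower, and 3 lay at the juvenile level (median 0.10). Gtf2h1, a core TFIIH subunit, read 636, 554, 562, 607 and 567 in CKO 4 wk hearts and 316, 344 and 285 in control 2 wk hearts, a rise of 0.86 ± 0.14 (adjusted p = 0.00164). Cdk8, a kinase of the Mediator complex, rose by 0.59 ± 0.16 (adjusted p = 0.0348), a call lost without CKO 4 wk replicate 3, 4 or 5 or control 2 wk replicate 1, 2 or 3 (adjusted p = 0.0555 to 0.156). Polr2a, the largest polymerase II subunit, lay at the juvenile level by its brighter probe set (0.04, -0.28 to 0.36), whereas its other probe set differed by 0.99 ± 0.17 (adjusted p = 0.00338 over all probe sets). Cdk7, the kinase that MAT1 holds, was dim, at 111, 101, 69.3, 73.4 and 85.6 in CKO 4 wk hearts and 68.3, 87.7 and 92 in control 2 wk hearts, and differed by 0.07 (-0.39 to 0.53).

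Of 20 tested cytosolic ribosomal protein genes 11 lay at the juvenile level, and 1 was called, Rps28 (0.25 ± 0.07, adjusted p = 0.0286), within 1.5-fold (median 0.02, and -0.04 after quantile normalization and -0.03 with arrays scaled to the same median). That call was lost without CKO 4 wk replicate 1, 2, 3 or 4 or control 2 wk replicate 1 or 2 (adjusted p = 0.0534 to 0.143). Over all tested genes 5.43% were called higher, so 1 call among 20 genes lies near that share. Of 7 tested interferon response and antigen presentation genes 2 were called higher (median 0.46): Cd74, the invariant chain of MHC class II (1.75 ± 0.32, adjusted p = 0.00346), and H2-K1 of class I (0.46 ± 0.13, adjusted p = 0.0423), whose call was lost without CKO 4 wk replicate 1, 3 or 4 or control 2 wk replicate 1, 2 or 3 (adjusted p = 0.0846 to 0.146). The interferon list held 29 genes, of which 26 had a probe set, and most of these were left out as dim.

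Markers of cell types were read beside these groups, because in whole hearts fewer cells of a type and less RNA per cell cannot be told apart. Heart muscle markers, with 4 of 9 called lower and 6 at the juvenile level, had a summed intensity of 50083 to 55562 in CKO 4 wk and 57772 to 65475 in control 2 wk hearts. Fibroblast markers, with 1 of 9 called higher (Dcn), summed to 21636 to 25785 and 15122 to 18973. Neither pair of ranges overlapped. Sums here and below take every marker with a probe set, also those left out of the test as dim. These were 10 genes for heart muscle and 12 for fibroblasts. These marker lists share genes with the lists above, among them Dcn of the matrix and Tnni3 and Myl2 of the sarcomere. The sums are thus no separate reading of those lists, and their part in the matrix, sarcomere and energy results was not tested.

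Macrophage markers, with 1 of 9 called higher (Lyz2, 1.26 ± 0.33, adjusted p = 0.0253), summed to 3836 to 6498 in CKO 4 wk and 3518 to 3602 in control 2 wk hearts, and the Lyz2 call was lost without control 2 wk replicate 1, 2 or 3 (adjusted p = 0.0501 to 0.106). Csf1r, the receptor that defines them, lay at the juvenile level (-0.05, -0.36 to 0.26). None of 11 endothelial and none of 5 lymphocyte markers was called by limma without the block (3 and 1 at an unadjusted p under 0.05), and both lists' summed ranges overlapped between the groups. Calls did appear once array set entered the fit: 2 endothelial genes rose, 3 fell, and 1 lymphocyte gene rose. Quantile normalization without the block gave 2 falls in the endothelial list. Smooth muscle and pericyte markers had 2 of 9 higher, Des and Cnn1 (1.40 ± 0.33, adjusted p = 0.0158). Des is also counted in the adult sarcomere list above, and the Cnn1 call was lost without control 2 wk replicate 1 or 2 (adjusted p = 0.0575 to 0.102). Acta2 and Rgs5 (-0.02, -0.27 to 0.24) lay at the juvenile level.

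Erythroid markers had 1 of 6 lower, the transferrin receptor Tfrc (-0.77 ± 0.17, adjusted p = 0.0128), a call lost without control 2 wk replicate 2 (adjusted p = 0.0631), and the globin Hba-a1 at the juvenile level (0.27, -0.05 to 0.58). The block called 3 of the 6 lower. In CKO 4 wk hearts the erythroid list's median followed the array sets, at 0.26, 0.35, -0.70, -0.32 and -0.92. The erythroid sum was 12896 to 22854 in CKO 4 wk and 15295 to 16131 in control 2 wk hearts. Adipocyte markers had 1 of 5 higher, Car3 (1.95 ± 0.51, adjusted p = 0.0264), whose arrays overlapped and whose call was lost without CKO 4 wk replicate 1, 3 or 4 or control 2 wk replicate 1 or 2 (adjusted p = 0.0552 to 0.136). Atrial markers had 1 of 5 higher, Nppa, and their sum of 9220 to 12498 against 2810 to 6409 holds Nppa. The atrial list's median on each array overlapped between groups, at -0.44 to 0.73 in CKO 4 wk and -0.74 to 0.41 in control 2 wk hearts. The median difference of that list was 1.18 within set 1 and -0.43 within set 2. Lung markers had 1 of 2 higher, Sftpd (0.74 ± 0.16, adjusted p = 0.00906), lost without control 2 wk replicate 3 (adjusted p = 0.0586). The skeletal muscle sum of 10787 to 11761 against 6547 to 8877 holds Myl1. No marker with a probe set lay at the lowest deposited value on all 8 arrays, and 3 of 16 macrophage, 3 of 9 lymphocyte and 4 of 14 skeletal muscle markers stayed under an intensity of 100 on each of them.

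Knockout hearts at 2 weeks of age (CKO 2 wk, 4 arrays) give the level of some of these genes at the younger age, and are given as values with no test. Acta1 read 6375, 6802, 6924 and 8046 there, above all control 2 wk arrays (2455 to 2904), with 3 of the 4 arrays below the CKO 4 wk range (7631 to 9176). Nppa read 3541, 4160.4, 1362 and 1914, also above all control 2 wk arrays (435 to 988) and below all CKO 4 wk arrays (5189.6 to 7138). Cdkn1a likewise lay between the groups, at 828, 683, 520.3 and 928.

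Acaa2 read 6926, 7387, 7696 and 7159 in CKO 2 wk hearts, where 2 of the 4 arrays lay inside the control 2 wk range of 7279.9 to 7719 and the others below it. Cpt2 read 1936, 2006, 1953 and 2164, with 3 of the 4 arrays below all control 2 wk arrays (2073 to 2339) and all 4 above the CKO 4 wk range (757 to 1139). Gja1 read 5360.0, 5333, 5451 and 5712, also with 3 of the 4 below all control 2 wk arrays (5524 to 6002) and all 4 above the CKO 4 wk range (2018 to 2704). Nqo1 read 115, 148, 141 and 206, below every CKO 4 wk array (469 to 586), with 3 of the 4 above the control 2 wk range (98.4 to 129). Gpx3 read 2053, 1844, 1557 and 1568, also below all CKO 4 wk arrays (5465 to 7378), with 2 of the 4 above the control 2 wk range (1275 to 1674).

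**Figure D4:**
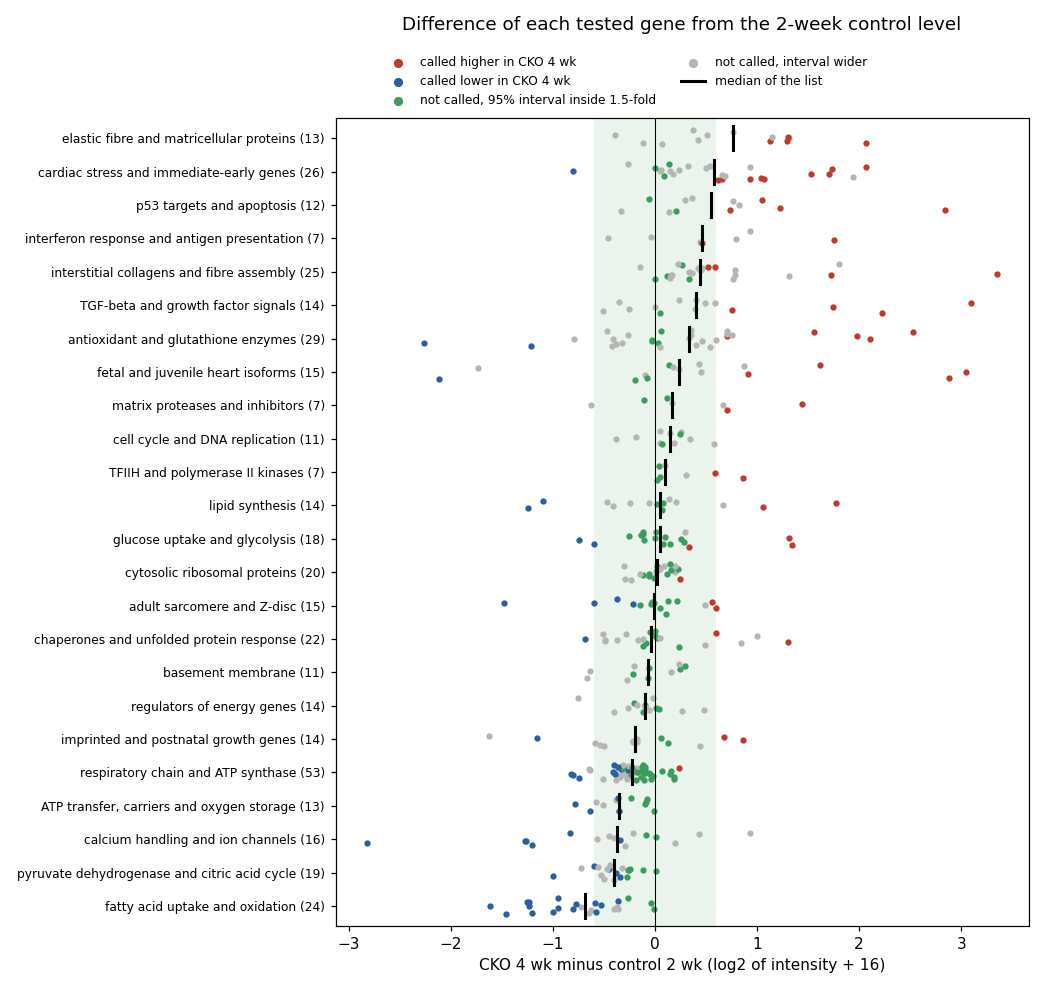
Difference between CKO 4 wk and control 2 wk hearts (horizontal axis, log2 of intensity + 16) of each tested gene in 24 lists, 1 point per gene, coloured by whether it was called or lay inside 1.5-fold; black bars are list medians and the shaded band spans 1.5-fold in both directions. All 24 fatty acid genes lie below 0, and the median of the elastic fibre and matricellular list is 0.77.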

How the data were processed

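Total RNA of mouse hearts was measured on 15 one-colour arrays, extracted with Trizol and columns and labelled with biotin, per the labels. The authors deposited linear intensities, 1 for each of 12422 probe sets and each array; the scaling and background correction are not stated in the labels. Every array had the same lowest deposited value, 0.95, and the deposited scaling was kept. No 2 arrays shared more than 0.0322% of values above the lowest.

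Values were used as log2(intensity + 16). The platform annotation named a single gene for 10833 probe sets, more than 1 for 396 and no gene for 1193; 10817 were matched by gene ID to a table of GRCm38.p6 to update symbols. Each of 8251 genes was read by its brightest single-symbol probe set and the dimmest 40% were left out, which left 4950. limma 3.58.1 in R 4.3.3 (lmFit and eBayes with trend) was fitted with 1 coefficient for each of the 4 groups; the 7 arrays outside the comparison entered the shared spread only. Tests were two-sided, with Benjamini-Hochberg adjustment over the tested genes (over all 8251 for genes left out as dim, over all probe sets for single probe sets). The script was tested on simulated data.

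Genes were read through 35 lists of 784 genes, of which 638 had a probe set and 474 were tested. Members and lists were chosen with earlier results of these data known, so a list's counts are a description. Genes named were the 10 leading rises and 10 leading falls of called genes with no overlap between arrays, in each list the 3 called members of smallest p, the 2 members at the juvenile level with the narrowest interval, and a set named whatever its values; Cpt1b and H19 of that set had no single-symbol probe set here. Promoters came from a RefSeq table. The number of arrays limits precision. Alternatives were other scalings, pseudocounts, filters and probe set rules, the 8 arrays alone, array set and inferred sex as blocks, array weights, the replicate number as a block, other margins and leaving out each array. Deviations of same-numbered arrays were negatively correlated (r = -0.73, -0.63 and -0.64), but each such pair fell in opposite array sets. Whether the numbers pair samples therefore cannot be told.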

Additional observations from a re-analysis of the deposited data

Results flagged for a closer look

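Among the genes named in the report, 6 had 1 CKO 4 wk array far from the other 4 by Dixon's test. By chance that test flags about 1 in 20 groups, and with 126 genes examined 6 lies near that rate. Control 2 wk groups, with 3 arrays, were not tested. Sema5b read 24.6 in replicate 5 against 104.2 to 168 in the others, and Esrra read 665.9 in replicate 3 against 816 to 882. In replicate 5 Eno3 read 7513 against 5913 to 6185, and Des 4343 against 3505 to 3664. In replicate 4 Gpx3 read 7378 against 5465 to 5758, and Sod1 1577 against 1881 to 1999.9.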

How the results depend on the processing

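Blocking on array set called 966 genes higher, 579 lower and placed 3094 at the juvenile level; with quantile normalization added these were 769, 808 and 3198, and with inferred sex added 897, 585 and 2920. Within set 1 they were 810, 347 and 2868, within set 2 718, 485 and 2154, and with array weights 722, 514 and 2330. With arrays scaled to the same median 142 were called higher, and after quantile normalization 260 lower. Leaving out each array in turn gave 135 to 289 higher, 80 to 156 lower and 950 to 1269 at the juvenile level. The narrower margin tried placed 121 genes at the juvenile level, and a margin of 2-fold 3553. The replicate number as a block, which may or may not pair samples, gave 110 higher and 88 lower. Other pseudocounts, filters, the mean of probe sets and the 8 arrays alone kept each count within 1.5 times.

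Of the 126 genes examined 81 were called. All 81 kept the call with the array set as a block, 76 after quantile normalization; 16 lost it with arrays scaled to the same median, among them Nppb, Myh6, Igf1r, Dcn and Des, and 18 without some array. Myh7 turned from -0.08 to 0.68 (adjusted p = 0.00875) with the mean of its probe sets, under which Cpt2, Mb, Ndufb2, Timp1, Timp2 and Hspd1 lost their calls. The cause was not tested. Dim genes, such as Ppargc1a and Cdk7, have differences understated by the added 16.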
